A study of Mus musculus with 16 samples.

Results

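Pparg encodes PPARγ, the nuclear receptor that directs preadipocytes to become fat cells, and its locus was read here across all 16 deposited lists of ChIP-seq islands from mouse 3T3-L1 cells. The locus was taken as the gene body with 100 kb added on each side, which spans 329.2 kb of mm9, chr6:115211239-115540419. It is 1 of 22350 protein-coding genes of the annotation. The lists hold 338 islands in this window out of 479799 in all, and the map of islands by library draws all 338.

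3T3-L1 cells are mouse fibroblast-like preadipocytes that a hormone cocktail turns into adipocytes in culture. Hours count from the addition of that cocktail (isobutylmethylxanthine, dexamethasone and insulin), and 0 h is before it. H3K27ac, an acetylation of histone H3 found at active promoters and enhancers, was profiled at 0 h and 48 h in cells carrying an empty retroviral vector and in cells transduced with SETD5, with 2 libraries (A and B) for each of the 4 conditions. SETD5 is a SET-domain protein that associates with co-repressor complexes. The tagged protein, SETD5-V5, was profiled with a V5 antibody at 0 h and 6 h with 2 libraries each. The endogenous protein at 0 h and 6 h and H3K4me1, the histone H3 methylation that marks enhancers whether or not they are active, at 0 h and 48 h had 1 library per condition, so they have no replicate check. All groups are the same cell line, and SETD5 was expressed in the transduced cells from a retroviral vector with a weak promoter. The virus field of the labels holds only a dash for replicate A of SETD5-V5, and it names the SETD5 virus for H3K4me1, whereas the study shows those H3K4me1 libraries as untransduced cells. For the endogenous protein the study names 3T3-L1 preadipocytes and no virus.

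PPARγ pairs with RXR on DNA and switches on genes of lipid uptake and storage. The gene has a promoter for Pparg1, which many cells use, and a second, internal promoter for Pparg2, which is used chiefly in fat. C/EBPβ and C/EBPδ act early in differentiation and C/EBPα later, and PPARγ and C/EBPα sustain each other.

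On the plus strand, Pparg (ENSMUSG00000000440.6) runs from 115311239 to 115440419. Distances below are from the Pparg1 start at 115311239. The Pparg2 start, at 115372084, lies at +60.8 kb inside an intron of the longer transcript, and the gene ends at +129.2 kb. A distal site tested by the study by ChIP-qPCR, at +158.3 kb, was placed at 115469535-115469640, downstream of the gene. Syn2, a synaptic vesicle gene, reaches into the window up to −78.6 kb, and 2510049J12Rik lies at its far end.

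The following 4 stretches of 300 bases show the sites the results turn on: both promoters up to the base before the start, the +158.3 kb site, and the centre of the longest stretch acetylated with the empty vector but not with SETD5 at 48 h. They are mm9 plus-strand sequence. Capitals mark matches, on either strand, to C/EBP (TTGCNNAA), AP-1 (TGANTCA), TEAD (GGAATG) or a PPAR direct repeat (AGGNCA, any single base, AGGNCA), and no matches printed here overlap each other.
Pparg1, chr6:115310939-115311238: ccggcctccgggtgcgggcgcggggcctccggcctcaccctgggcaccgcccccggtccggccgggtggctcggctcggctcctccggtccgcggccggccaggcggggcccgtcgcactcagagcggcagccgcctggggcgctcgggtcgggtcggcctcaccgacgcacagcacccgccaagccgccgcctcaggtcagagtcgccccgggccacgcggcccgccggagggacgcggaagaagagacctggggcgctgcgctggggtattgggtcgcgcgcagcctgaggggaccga
Pparg2, chr6:115371784-115372083: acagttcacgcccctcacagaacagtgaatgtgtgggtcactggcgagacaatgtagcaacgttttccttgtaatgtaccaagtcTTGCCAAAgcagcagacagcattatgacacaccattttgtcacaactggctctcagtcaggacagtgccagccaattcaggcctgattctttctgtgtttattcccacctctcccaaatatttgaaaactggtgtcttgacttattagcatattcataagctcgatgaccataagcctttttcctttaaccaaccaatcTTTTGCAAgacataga
+158.3 kb, chr6:115469438-115469737: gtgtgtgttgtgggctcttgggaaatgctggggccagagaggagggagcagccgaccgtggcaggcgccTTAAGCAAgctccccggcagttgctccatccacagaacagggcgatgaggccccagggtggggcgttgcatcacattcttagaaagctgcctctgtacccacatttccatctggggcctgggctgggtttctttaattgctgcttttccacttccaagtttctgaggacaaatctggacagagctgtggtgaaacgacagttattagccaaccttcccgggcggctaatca
+145.5 kb, chr6:115456751-115457050: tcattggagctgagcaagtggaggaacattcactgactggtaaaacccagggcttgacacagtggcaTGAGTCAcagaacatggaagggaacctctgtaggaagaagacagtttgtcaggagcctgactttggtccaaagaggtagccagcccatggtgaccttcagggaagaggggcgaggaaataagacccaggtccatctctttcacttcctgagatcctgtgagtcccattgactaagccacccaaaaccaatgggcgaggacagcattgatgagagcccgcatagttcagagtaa

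The Pparg1 stretch was 79.7% G and C and held 0 matches. The Pparg2 stretch was 43.3% G and C and held 2 C/EBP matches, the nearer of them 16 bases before the start. Of 45940 protein-coding start sites, 10.5% had a C/EBP match in the same 300 bases, 6.64% an AP-1 match, 13.5% a TEAD match and 0.355% a PPAR repeat. The +158.3 kb stretch held 1 C/EBP match and the +145.5 kb stretch 1 AP-1 match. Over the 300 central bases of 31287 islands of an empty-vector 48 h list, 14.3% held a C/EBP match, 11.2% an AP-1 match, 15.4% a TEAD match and 0.527% a PPAR repeat. The 9400 bp SETD5-V5 island over the Pparg2 promoter in replicate A at 6 h held 9 C/EBP matches, or 0.957 per kb, against 0.488 per kb over all islands of that list. The other motifs were less dense there than over the list. AP-1 had 0.213 per kb against 0.382, TEAD 0.319 against 0.595 and the PPAR repeat 0 against 0.0209. The island of the same list over the +158.3 kb site had 0.938 C/EBP, 0.625 AP-1 and 0.625 TEAD matches per kb. The island over the Pparg1 promoter had 0.532, 0.213 and 0.319. All these densities rest on few matches. A C/EBP site matching on both strands counted for each strand in these islands but not over the list, so the C/EBP densities differ in method. A match of letters does not show that a factor was bound.

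H3K27ac covered more of the locus at 48 h than at 0 h in empty-vector cells. At 0 h the islands covered 143.6 kb in replicate A and 112.4 kb in replicate B, and at 48 h they covered 204.4 kb and 184.6 kb. The 2 libraries at 48 h lay above both at 0 h, and the means were 128.0 ± 22.1 kb and 194.5 ± 14.0 kb (SD, n = 2). The difference was 66.5 kb, or 1.52 times. Among 19167 genes with any H3K27ac island in these 4 lists, 42.3% were likewise apart and higher at 48 h, so separation by itself was common. The size of the change was less so, since 0.777% of those genes gained a larger share of their window than the 20.2 percentage points gained at Pparg. The Pparg window was already well covered at 0 h, at 43.6% and 34.1% against medians of 4.62% and 4.02% over all genes.

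With SETD5 the locus gained less. At 0 h the islands covered 106.0 kb in replicate A and 121.8 kb in replicate B, and at 48 h 133.0 kb and 150.8 kb. Both 48 h libraries again lay above both 0 h libraries, with a difference of 28.0 kb, and 33.3% of genes were apart in that direction. Compared at 0 h, the vectors overlapped, and SETD5 was 14.1 kb below the empty vector on average. Pairing the replicates by letter gave −37.6 kb in A and 9.4 kb in B, while the crossed pairing gave −6.4 kb and −21.8 kb. In this comparison 41.9% of genes were apart in either direction. Compared at 48 h, both SETD5 libraries lay below both empty-vector libraries by 52.6 kb on average, as did 35.4% of genes. A larger share of the window than the 16 percentage points at Pparg was lost by 0.215% of genes. With the empty vector at 48 h the Pparg window was 62.1% and 56.1% covered, against medians of 5.01% and 4.42% over all genes. A gene with the median cover could not lose 16 percentage points, so this rank partly reflects the high cover at Pparg. With the replicates paired by letter, the gain over time was 60.8 kb and 72.2 kb with the empty vector and 27 kb and 29 kb with SETD5, and for 38.8% of genes both gains with SETD5 were likewise the smaller. This separation depends on the pairing, for which no shared batch is stated. With both vectors crossed, an alternative added after seeing the data, the gains were 92.0 kb and 41.0 kb against 11.2 kb and 44.8 kb and overlapped (exact permutation p = 0.667).

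In each of these comparisons except that at 0 h, with replicates paired by letter for the gains, the exact two-sided permutation test gave p = 0.333, the smallest that 2 against 2 libraries allow, so none could pass 0.05. At 0 h the exact permutation p was 0.667. The whole lists covered 103.4 to 121.5 Mb with the empty vector and 109.1 to 120.5 Mb with SETD5. Per Mb covered by its whole list, the locus held 1.68 kb and 1.66 kb at 48 h with the empty vector and 1.21 kb and 1.25 kb with SETD5. At 0 h it held 1.18 kb and 1.09 kb with the empty vector and 0.971 kb and 1.02 kb with SETD5. On this measure the vectors were thus apart at 0 h as well (exact permutation p = 0.333, the smallest possible). The SETD5 lists held more islands genome-wide, 36604 to 39949 against 31292 to 35460. The study states more total reads for each SETD5 H3K27ac library than for the empty-vector libraries of the same time, and the part of depth in these differences was not tested.

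**Figure D1:**
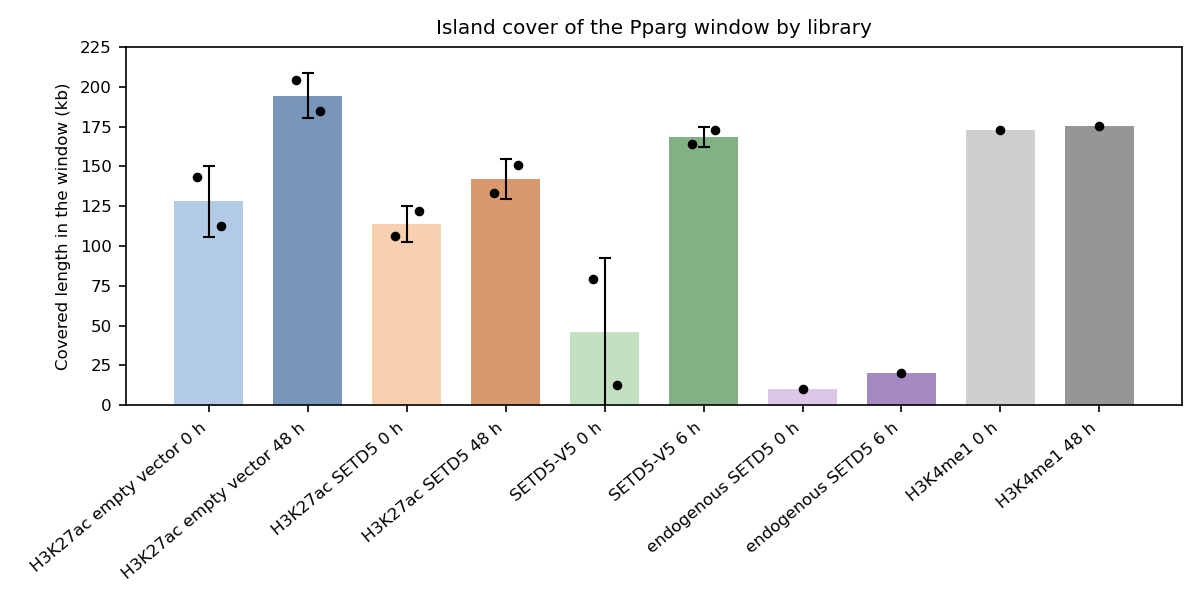
Covered length of the Pparg window in kb, by condition. Bars are means, points are libraries and error bars are the SD of 2 libraries. Empty-vector cells at 48 h reach 204.4 and 184.6 kb, above every other H3K27ac library.

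The difference between vectors at 48 h was present in every part of the gene and was widest downstream. Between the Pparg1 and Pparg2 starts the empty-vector libraries covered 48.4 kb and 51.0 kb at 48 h and the SETD5 libraries 37.2 kb and 39.8 kb. From the Pparg2 start to the gene end they covered 64.9 kb and 56.9 kb against 44.1 kb and 50.3 kb. From the gene end to the end of the window they covered 56.0 kb and 53.6 kb against 28.8 kb and 35.2 kb. The vectors did not overlap in any of these 3 parts. Downstream the vectors were also apart at 0 h, with 47.0 kb and 38.8 kb against 31.8 kb and 36.6 kb. Upstream of the gene they did overlap at 48 h, with 35.0 kb and 23.0 kb against 22.8 kb and 25.4 kb.

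**Figure D2:**
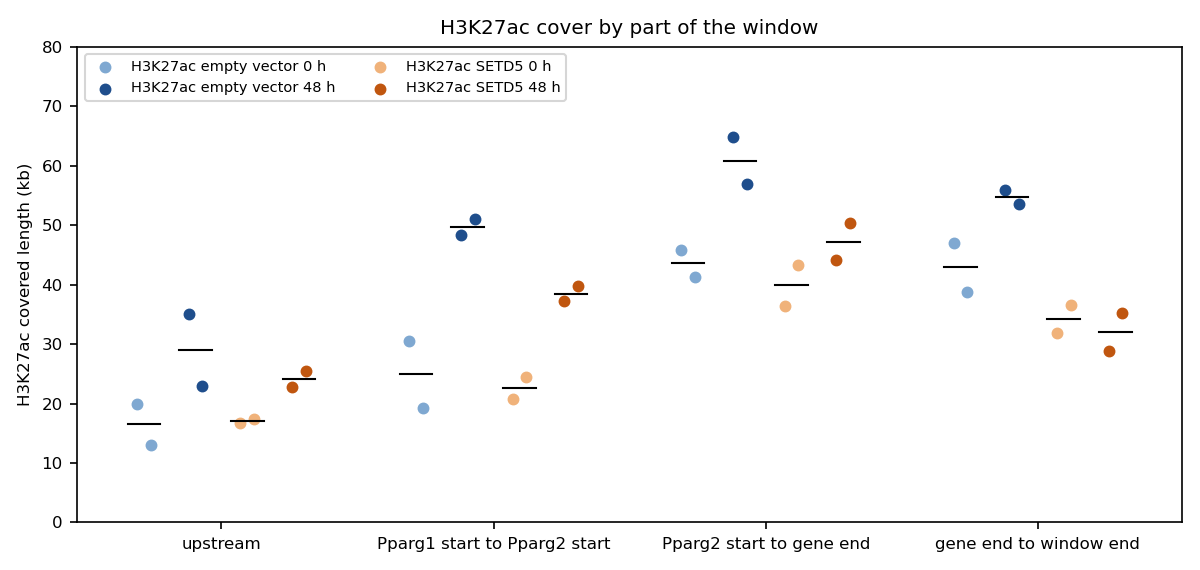
H3K27ac covered length in kb in 4 parts of the window, with libraries as points and means as lines. In the part from the gene end to the window end, empty-vector cells sit at 56.0 and 53.6 kb at 48 h and SETD5 cells at 28.8 and 35.2 kb.

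The Pparg1 promoter carried an H3K27ac island in all 8 libraries. With the empty vector its length was 14200 bp and 9400 bp at 0 h and 18400 bp and 18800 bp at 48 h. With SETD5 it was 7600 bp and 9800 bp at 0 h and 15200 bp and 13000 bp at 48 h. Within each vector both islands at 48 h were longer than both at 0 h, and the SETD5 islands at 48 h were shorter than both empty-vector ones. Within their lists, 1.76% and 2.00% of islands scored higher than this one with the empty vector at 48 h and 2.23% and 2.36% with SETD5, so its rank was close between vectors. The score is the island caller's own value and was compared only within a list.

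The Pparg2 promoter differed more in length. With the empty vector the island was 7600 bp and 5400 bp at 0 h, and 27000 bp and 25400 bp at 48 h, when it ran from +42.8 to +69.8 kb and from +41.8 to +67.2 kb. With SETD5 it was 3400 bp and 8000 bp at 0 h and 9000 bp and 8000 bp at 48 h. Both empty-vector islands at 48 h were longer than every other island at this promoter. In the empty-vector lists 0.799% and 0.739% of islands scored higher at 48 h, and in the SETD5 lists 9.17% and 8.44%. The stretch upstream of it was not bare with SETD5, where separate islands covered +42.4 to +54.2 kb in replicate A, in 2 pieces, and +42.2 to +54.6 kb in replicate B. In replicate A 14.3% and 4.49% of islands scored higher than these pieces, and in replicate B 3.29% scored higher than that island. The rank at the promoter with SETD5 is thus that of 1 piece of a broken stretch, set against 1 long island with the empty vector.

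**Figure D3:**
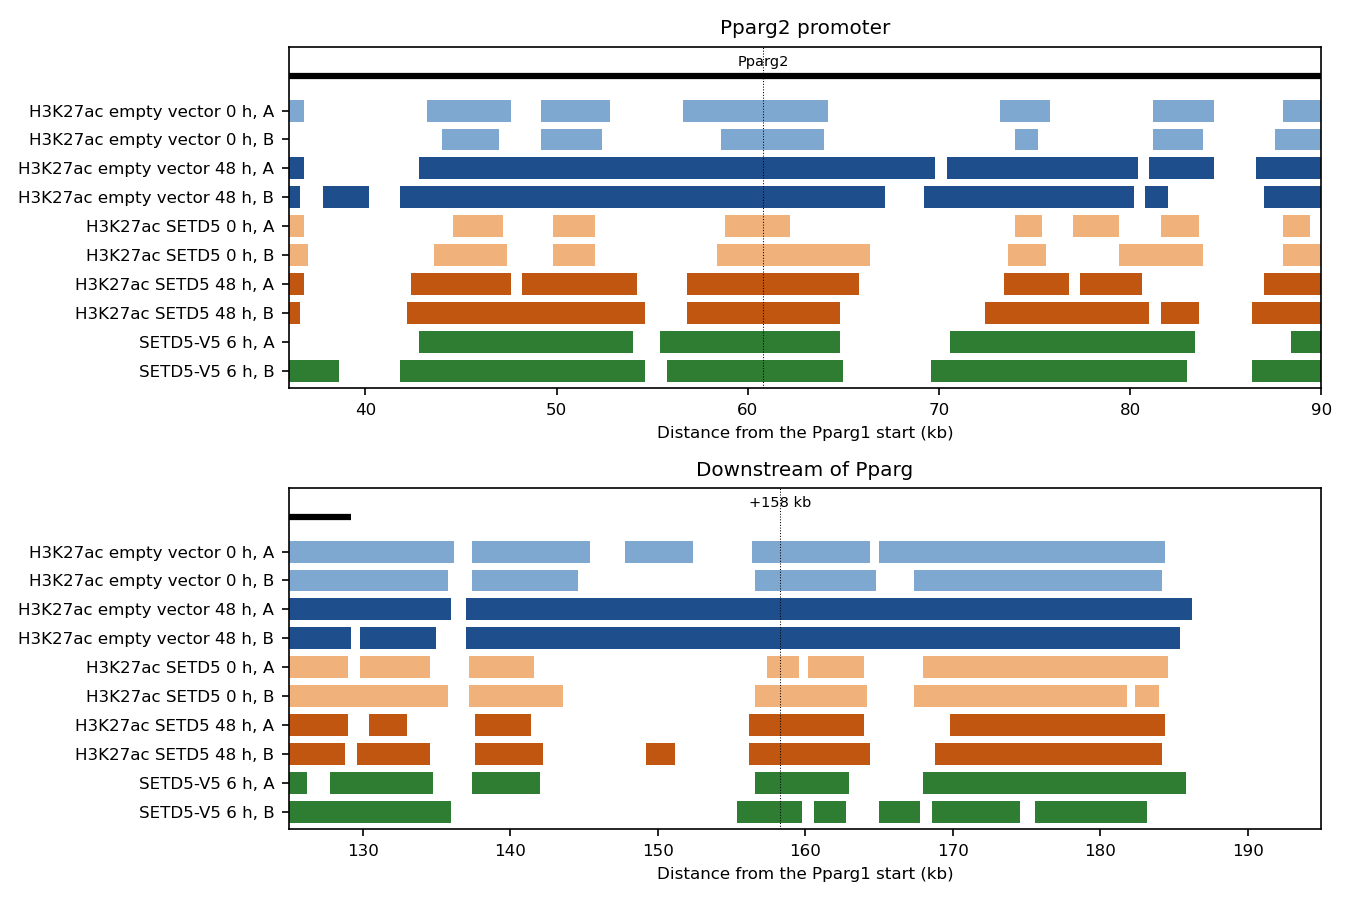
Islands of H3K27ac and of SETD5-V5 at 6 h around the Pparg2 promoter (top) and downstream of the gene (bottom), by distance from the Pparg1 start in kb. With the empty vector at 48 h single islands run from +42.8 to +69.8 kb and from +137.0 to +186.2 kb in replicate A, and with SETD5 the same stretches are broken up.

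Downstream, a single long island held the +158.3 kb site in empty-vector cells at 48 h. It was 49200 bp long in replicate A, from +137.0 to +186.2 kb, and 48400 bp in replicate B, from +137.0 to +185.4 kb. At most 0.142% of islands of either list scored higher, and in the list of replicate B 18 islands were longer. With SETD5 at 48 h the island over the +158.3 kb site was 7800 bp and 8200 bp, from +156.2 kb to +164.0 and +164.4 kb, with a separate island from +169.8 kb in replicate A and from +168.8 kb in replicate B. At 0 h the island over this site was 2200 bp and 7600 bp with SETD5 and 8000 bp and 8200 bp with the empty vector. Both SETD5 islands were thus longer at 48 h than at 0 h, and neither was longer than the longer empty-vector island of 0 h. The SETD5 island of 0 h in replicate A ended at +159.6 kb, and another ran from +160.2 to +164.0 kb, with 24.1% of islands scoring higher. The length and score rank in replicate A at 0 h thus depend on this split. The +158.3 kb site itself was therefore within an H3K27ac island in all 8 libraries, and the difference in covered length lay in the stretches beside it. The lists hold no read counts, so they cannot show whether the level of acetylation at the site itself was alike. The study describes this site as lacking H3K27ac at 0 h and as repressed with SETD5 at 48 h. In the SETD5 lists 51.2% and 16.4% of islands scored higher than the +158.3 kb island at 0 h, and 2.31% and 2.88% at 48 h.

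The stretches in both empty-vector lists and neither SETD5 list at 48 h summed to 30.4 kb in 21 runs. The reverse pattern summed to 0.2 kb in 1 run at +80.4 kb, while over the genome the patterns summed to 12.11 Mb and 13.01 Mb. The 3 longest runs all lay downstream, at +142.2 to +149.2 kb, +151.2 to +156.2 kb and +164.4 to +168.8 kb. The next 4 lay in Pparg introns, at +54.6 to +56.8 kb, +70.4 to +72.4 kb, +65.8 to +67.2 kb and +32.8 to +33.8 kb. The ninth lay in Syn2 and the tenth 10 kb upstream of Pparg. The caller joins enriched windows across short gaps, so a covered stretch can include windows that were not enriched themselves.

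Stretches in both empty-vector lists at 48 h and neither at 0 h summed to 43.6 kb, and those lost over the same time to 0.0 kb. The longest gained were at −20.2 to −15.2 kb, +11.8 to +16.6 kb and +75.8 to +80.2 kb, the last over a Pparg exon. Of the 43.6 kb, 14.0 kb was in both SETD5 lists at 48 h and 17.8 kb in neither. Over the genome the order was the other way, with 14.12 Mb in both and 8.56 Mb in neither of 27.81 Mb gained. Of the sequence acetylated in both empty-vector libraries at 0 h, 95.3% was still so at 48 h, against 60.8% over the genome. Sequence acetylated in both at 48 h made up 173.6 kb of the window, so a high share was likely here. With the empty vector, rank by score fell around the gene end. At 0 h an island ran from +97.6 to +136.2 kb in replicate A and from +114.4 to +135.8 kb in replicate B. Within their lists 0.255% and 0.838% of islands scored higher. At 48 h the islands there were 49400 bp and 29200 bp long, and 1.43% and 2.72% scored higher. In replicate B a separate island then held +129.8 to +135.0 kb, with 12.7% scoring higher. The rank in replicate B thus depends partly on the split.

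A stretch upstream of the gene behaved differently. From −45.2 to −42.6 kb both SETD5 lists at 0 h held H3K27ac, and neither empty-vector list did at 0 h or 48 h, nor either SETD5 list at 48 h. The islands were 3800 bp and 3400 bp long, and 43.0% and 60.1% of islands of their lists scored higher. Both SETD5-V5 libraries at 6 h covered the whole 2600 bp, and neither at 0 h did.

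SETD5-V5 covered less of the locus at 0 h than at 6 h. The islands covered 79.0 kb in replicate A and 12.6 kb in replicate B at 0 h, and 163.8 kb and 173.0 kb at 6 h. Both 6 h libraries lay above both 0 h libraries, by 122.6 kb on average (exact permutation p = 0.333, the smallest possible), and 61.9% of genes were apart in that direction. The difference was 84.8 kb in replicate A alone and 160.4 kb in replicate B alone. The lists themselves grew, from 85.6 to 196.1 Mb in replicate A and from 35.3 to 147.9 Mb in replicate B. Per Mb of its list, the locus went from 0.922 to 0.835 kb in replicate A and from 0.357 to 1.17 kb in replicate B, so relative to the list the replicates moved in opposite directions.

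At 0 h the replicate B list held 4 islands in the window. They lay in Syn2, at −95.8 to −92.4 kb, over the Pparg2 promoter, at +59.0 to +63.8 kb, in an intron at +118.6 to +120.2 kb and past the gene end at +129.8 to +132.6 kb. Replicate A held islands over each of them. The Pparg2 promoter was the only one of the 3 named sites (both Pparg promoters and the +158.3 kb site) with an island in both SETD5-V5 libraries at 0 h. At 6 h its island was 9400 bp and 9200 bp long, with 3.62% and 3.84% of islands scoring higher. The Pparg1 promoter had an island of 2000 bp in replicate A at 0 h, where 96.8% of islands scored higher, and of 9400 bp and 10200 bp at 6 h. The +158.3 kb site had none at 0 h, and islands of 6400 bp and 4400 bp at 6 h.

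Of the sequence within both SETD5-V5 libraries at 6 h, 64.3% was acetylated in both empty-vector libraries at 0 h and 80.2% at 48 h, against 37% and 41.8% over the genome. Sequence acetylated in both empty-vector libraries made up 110.8 kb of the 329.2 kb window at 0 h and 173.6 kb at 48 h. High shares were thus likely in this window. Runs acetylated at 48 h with the empty vector and not with SETD5 were covered by both SETD5-V5 libraries over 16.4% of their length, against 23.4% over the genome. Both SETD5-V5 libraries at 6 h covered 61.6% of all sequence acetylated in both empty-vector libraries at 48 h, against 51.4% over the genome. Sequence in both SETD5-V5 libraries made up 133.4 kb of the window, so a high share was likely here too.

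Endogenous SETD5 gave few islands. At 0 h they lay over the Pparg1 promoter, at −1.8 to +1.2 kb, and in an intron at +69.6 to +76.8 kb. At 6 h they lay over the Pparg2 promoter, at +56.4 to +62.8 kb, at +97.0 to +104.6 kb and past the gene end at +130.0 to +136.0 kb. No island of 0 h overlapped an island of 6 h. The covered length of 10.2 kb at 0 h was 9.8 kb greater at 6 h, and 71.5% of the 7001 genes with an island were at least 1.5 times higher at 6 h, the list as a whole going from 10.6 to 23.3 Mb. The direction turned to −7.2 kb among islands above the median score and to −0.107 kb per Mb of the list. Each of the 3 islands of 6 h was overlapped by SETD5-V5 in replicate A and in replicate B at that time. The endogenous islands of 0 h were overlapped by both SETD5-V5 lists of 6 h as well. Those lists covered 49.8% and 52.6% of the window, so such overlap was likely for islands of this length.

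H3K4me1 covered 172.8 kb at 0 h and 175.4 kb at 48 h, and thus did not pass the 1.5 times that 44.6% of genes passed in either direction. The +158.3 kb site lay within an H3K4me1 island at both times, of 7200 bp and 7800 bp, with 1.44% and 0.439% of islands scoring higher. The Pparg2 promoter lay within an island of 5200 bp at 0 h. At 48 h no island reached it, with islands ending at +59.8 kb and starting at +62.4 kb. At the Pparg1 promoter an island began at the start site at 0 h and 0.2 kb after it at 48 h. H3K4me1 at 0 h covered 92.3% of the sequence acetylated in all 8 H3K27ac libraries, against 57.8% over the genome. That list covered 52.5% of the window as a whole, so a high share was likely here. It covered 28.3% of the runs acetylated at 48 h with the empty vector and not with SETD5, close to the 28.9% over the genome. Of all sequence acetylated in both empty-vector libraries at 48 h it covered 70.6%, against 47.8% over the genome. The runs were thus covered less than that sequence as a whole, at the locus and over the genome.

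**Figure D4:**
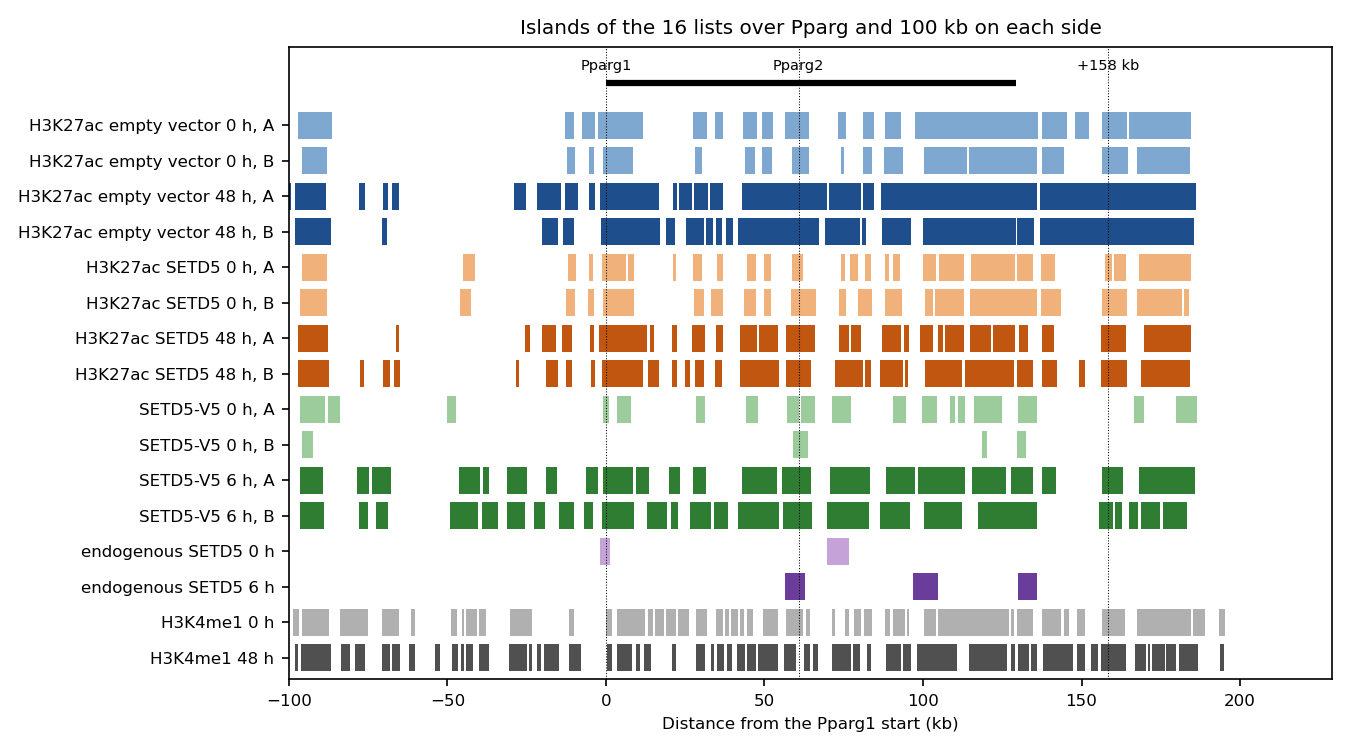
All islands of the 16 lists in the Pparg window, by distance from the Pparg1 start in kb, with 1 row per library and the gene as a black bar. Endogenous SETD5 gives 2 islands at 0 h and 3 at 6 h, while the H3K27ac libraries give 16 to 27.

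The windows most like that of Pparg over all 16 lists, by root mean square difference in covered share, were those of Sik1 (7.24 percentage points), Irf2bp2 (7.32), Cyp1b1 (7.77), Prrx2 (8.33) and Tmem189 (8.38). Sik1 encodes a salt-inducible kinase and Cyp1b1 a cytochrome P450. At 48 h the H3K27ac share was 54.5% with the empty vector and 46.4% with SETD5 at Sik1, against 59.1% and 43.1% at Pparg.

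Pparg was set beside its partners and its targets, by the share of each gene's window that H3K27ac covered at 48 h. Of 29 transcription factors and partners found in the annotation, out of 30 listed, 14 had both SETD5 libraries below both empty-vector libraries and 5 had both above, with a median difference of −1.37 percentage points against −0.22 over all genes. Cebpa, which sustains adipogenesis together with Pparg, had the lowest difference at −23.2 percentage points, and Ebf2, a factor of the fat lineage, the highest at 5.73. Cebpg lies next to Cebpa, and their windows overlap. Of 26 PPARγ target genes, 18 were below and 2 above, with a median of −3.08, where 35.4% of all genes were below and 24.8% above. Acsl1, which activates fatty acids, had the lowest at −21.5, and Pck1, an enzyme of glyceroneogenesis, the highest at 3.29. Fabp4, the fatty acid carrier of adipocytes, was not an extreme of the list and had 26.7% with the empty vector and 7.74% with SETD5. Other targets did not fall, as Lipe had 25.4% and 25.7% and Gpd1 26% and 26.8%. A larger loss than at Pparg was found for 3 of the 29 and 4 of the 26 genes. Over time with the empty vector, 23 of the 26 targets and 13 of the 29 factors and partners were apart and higher at 48 h, with 42.3% of all genes. SETD5-V5 was apart and higher at 6 h for 14 of the 26 and 13 of the 29, with 61.9% of all genes.

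**Figure D5:**
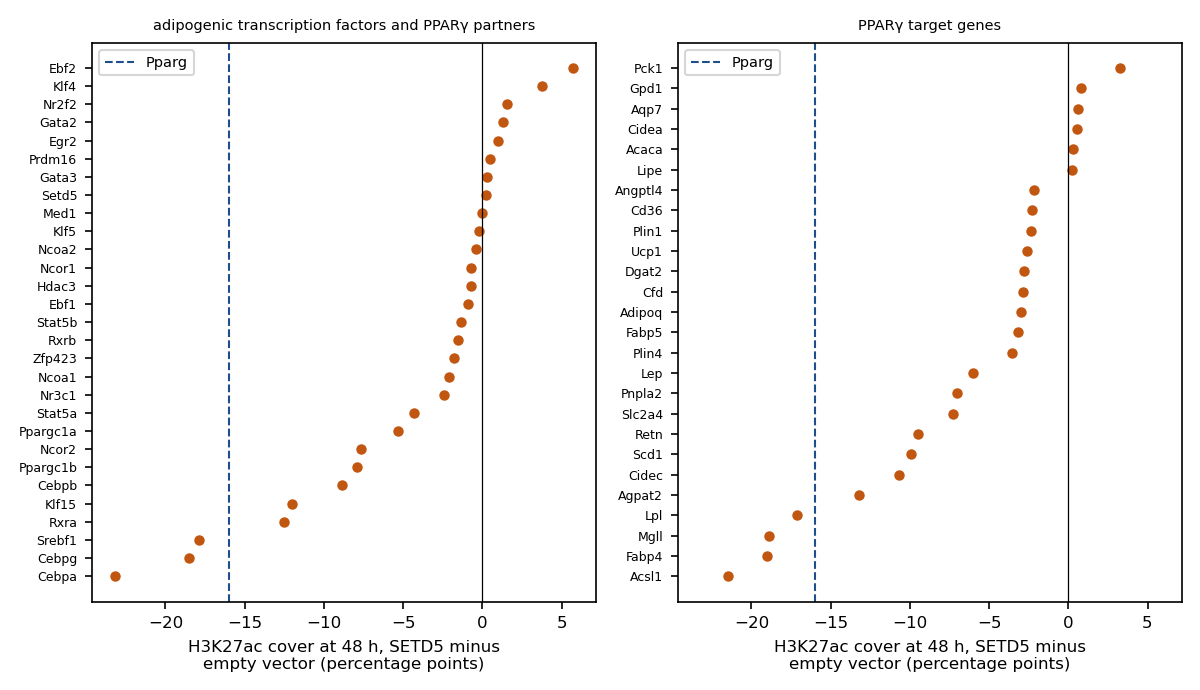
Difference in H3K27ac covered share at 48 h, SETD5 minus empty vector in percentage points, for each gene of both lists, with Pparg as a dashed line. Cebpa at −23.2 and Acsl1 at −21.5 lie lowest, and Pparg at −16 lies below most genes.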

How the data were processed

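Per the labels and the study's methods, the authors mapped ChIP-seq reads to mm9 and called islands in each library with SICER or SICER2. Where the study gives island numbers for both callers, the deposited lists hold those of SICER2. Each deposited list gives position and a score per island, which is the caller's own value. Island starts lay on a 200 bp grid, and islands lay at least 600 bp apart in the H3K27ac and H3K4me1 lists and 800 bp apart in the others. The lists give no read counts, so depth per island is unknown, and absence means below the caller's threshold.

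Covered length, overlap of at least 1 bp and the percent of islands with a higher score were computed in Python 3.11.15 (NumPy 2.4.6, SciPy 1.17.1) and tested on simulated data and against bedtools 2.31.1. Group differences used exact two-sided permutation tests. Replicates were labelled as separate samples, and p-values measure only the spread between them. Promoters ran from 1000 bp before to 100 bp after a start. Named sites were both promoters, the +158.3 kb site placed by its primers, the 10 longest runs of a pattern, SETD5 islands, the 5 windows most alike, and the extremes of each gene list. Cebpg, Fabp4, Lipe and Gpd1 were named besides the extremes. The members and lists were chosen with earlier results of these data known. Genome and annotation were NCBIM37 and GENCODE. Alternatives were other windows, score, number and gap settings, list cover, replicates left out and a replicate block. An item in the window is not reported here.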

Additional observations from a re-analysis of the deposited data

Results flagged for a closer look

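H3K27ac downstream of Pparg, from the gene end to the end of the window, changed in opposite directions over time in the 2 vectors when the replicates were paired by letter. From 0 h to 48 h the covered length went up by 9.0 kb and 14.8 kb in the empty-vector libraries A and B, and it changed by −3.0 kb and −1.38 kb in the SETD5 libraries. The exact permutation test of this difference gave p = 0.333, the smallest that 2 against 2 allow. With SETD5 the times overlapped, at 31.8 kb and 36.6 kb at 0 h and 28.8 kb and 35.2 kb at 48 h (exact permutation p = 0.667). With the crossed pairing the SETD5 changes were −7.78 kb and 3.4 kb and the empty-vector changes 17.2 kb and 6.62 kb, so the single direction with SETD5 depends on the pairing.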

How the results depend on the processing

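The H3K27ac differences over time and at 48 h, and that of SETD5-V5, kept their direction under each of the alternatives run. Leaving out a replicate gave 60.8 to 72.2 kb for the empty vector over time, 27 to 29 kb for SETD5 over time, −71.4 to −33.8 kb between vectors at 48 h, −43.2 to −33.8 kb for the change over time and 84.8 to 160.4 kb for SETD5-V5. The difference at 0 h ranged from −37.6 kb to 9.4 kb and turned its sign without replicate A, with libraries matched by letter. The replicate block left the mean differences at 66.5, 28.0, −14.1, −52.6, −38.5 and 122.6 kb, and its smallest exact p is 0.5. Replicate letters share no stated batch, and A minus B over genes correlated at 0.306 between the empty-vector times, 0.206 between the SETD5 times, 0.484 for SETD5-V5 and −0.376 between vectors at 0 h. Crossed pairings at 0 h and of the change over time, added after seeing the data, and pairing by letter gave 0 calls, and none was possible at this size. For H3K4me1, 2.6 kb became 6.4 kb with 50 kb margins, 9.2 kb with 200 kb, −4.76 kb over the gene body, 4.0 kb with equal numbers of islands and −0.0819 per Mb of the list. For endogenous SETD5, 9.8 kb became 15.4 kb with 200 kb margins, 5.64 kb over the gene body, 3.8 kb with equal numbers, −7.2 kb above the median score and −0.107 per Mb. The cause was not tested. Depth per island is unknown, and 2 libraries per group allow no call at 0.05.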
